A study of Oryza sativa with 36 samples.

Results

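The transcriptome of FTOmut rice roots was compared with that of wild-type roots across 55801 genes, the rows of the deposited root table that carry a LOC_Os identifier, out of 55893 rows that also hold 92 spike-in transcripts. The comparison rests on 4 of the 36 samples of the series: 2 root libraries of FTOmut and 2 of wild type, all in the cultivar Nipponbare. FTOmut plants are described as homogeneous transgenics carrying a variant of FTO without demethylation activity, FTO being an animal enzyme that removes the methyl mark N6-methyladenosine (m6A) from RNA. Plants carrying active FTO, the other transgenic group, also gave 2 root libraries. Those libraries entered the fit and appear here only beside FTOmut. Seedlings of all groups grew hydroponically in Kimura B medium, in days of 12 h at 26 °C and nights at 22 °C, and were 15 days old. The labels give neither the promoter that drives the transgene nor the number of independent lines behind FTOmut, and the transgene's own transcript was not analysed here. Effects of the protein, of the insertion and of the line cannot be told apart in this comparison.

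Rice roots take up iron both as ferrous ions, through IRT transporters, and as ferric complexes of mugineic acids, chelators made from nicotianamine and secreted into the medium. Water enters through aquaporins of the plasma membrane (PIP) and the vacuole (TIP). Cold, dehydration and wounding switch on fast regulators in rice, among them the DREB1 (CBF) transcription factors, the JAZ repressors of jasmonate signalling and several WRKY factors. In bulk roots, a lower value can come from fewer cells of a type or from less RNA per cell, which cannot be told apart.

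Gene counts per root library were 16570406 and 16449472 in FTOmut and 13409952 and 15982228 in wild type. FTOmut root replicate 2 stood apart by its breadth: 46275 genes had at least 10 counts, against 30283 in FTOmut replicate 1, 23270 and 24267 in wild type, and at most 28443 in FTO. Of 7743 genes with no more than 4 counts in all wild-type and FTO root libraries together, 2354 reached 10 counts in FTOmut replicate 2 and 41 did so in FTOmut replicate 1. Across 19358 genes the FTOmut libraries still resembled each other (Spearman rho 0.969) more than either resembled wild type (0.768 to 0.784). Gene counts per spike-in count were 12.2 and 9.83 in FTOmut and 12.4 and 10.6 in wild type. In the shoot, used only at the end, the wild-type libraries differed from each other: the summed CPM (counts scaled to a common library size) of 24 green tissue markers was 19030 in replicate 1 and 3597 in replicate 2.

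FTOmut roots differed from wild-type roots in a large share of the transcriptome. Of 32467 genes with enough counts to be tested, 19996 (61.6%) passed edgeR's quasi-likelihood test at a Benjamini-Hochberg adjusted p under 0.05. A total of 10561 were higher (32.5%) and 9435 lower (29.1%) in FTOmut. Because 1 FTOmut library had a raised background, a stricter class was also counted: a both-replicate call is a gene that passed the test and in which each FTOmut library differed from each wild-type library by more than 1 on the log2 scale in the same direction. There were 7264 such genes higher (22.4%) and 3686 lower (11.4%).

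The calls were counted by the level of the gene. Below a mean of 0 log2 CPM over the 6 root libraries, 4246 of 9122 genes were both-replicate higher and 169 lower. Of these 4246 genes, 1278 reached the minimum of the filter on low counts in both FTOmut libraries and in no other, and such genes had to be higher. Of all 9122 genes, 5870 reached it in both FTOmut libraries and 1168 in both wild-type libraries, so nothing is read from the direction in this range. Between 2 and 4 log2 CPM, 510 of 7175 genes were both-replicate higher (7.11%) and 1354 lower (18.9%). Between 4 and 6 log2 CPM 567 of 6181 genes were higher (9.17%) and 993 lower (16.1%). Without FTOmut replicate 2, 66.3% of the higher genes below 0 log2 CPM were still called higher. From 2 log2 CPM upward, at least 99.7% of both-replicate genes in each range of level were still called in the same direction. That class already requires the gap from wild type in the FTOmut library that remained, so such a high share is largely built in. It is therefore no separate test of these calls against the raised background of FTOmut replicate 2. Large changes were found on both sides from 2 log2 CPM upward: 188 genes were at least 16-fold higher and 62 at least 16-fold lower.

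**Figure D1:**
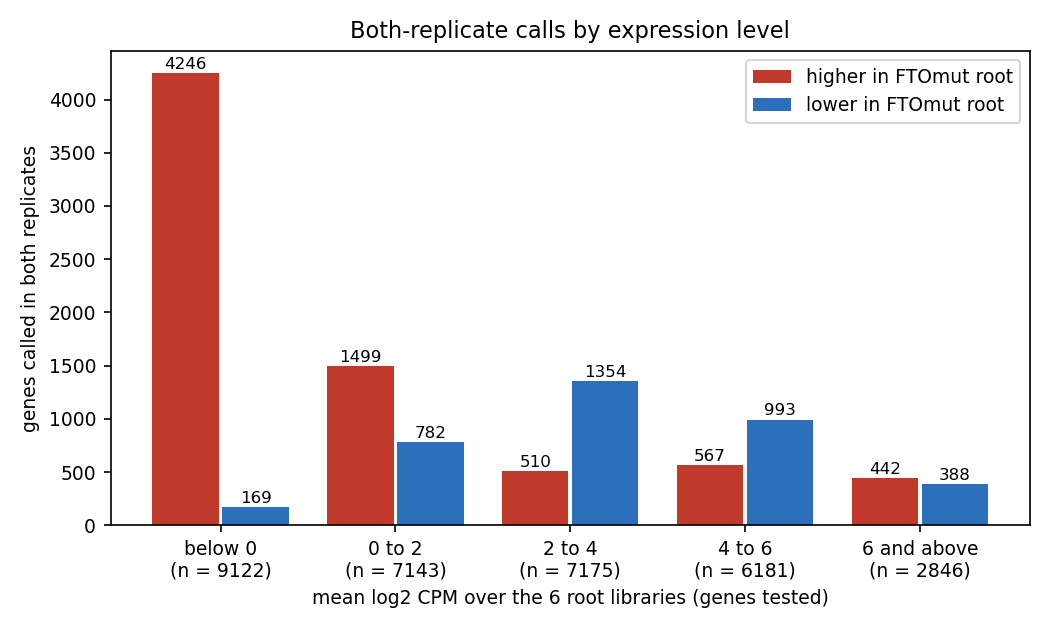
Number of genes called in both replicates as higher (left bars) or lower (right bars) in FTOmut than in wild-type roots, by mean log2 CPM over the 6 root libraries. Higher calls lead below 2 log2 CPM (4246 against 169 in the lowest range, 1278 of the higher ones tested through the FTOmut libraries alone), lower calls lead between 2 and 6, and the counts are 442 higher and 388 lower at 6 and above.

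Small changes moved with the scaling of the libraries. Genes at 2 log2 CPM or more had a median log2 fold change of -0.52 under the trimmed-mean scaling used here, of -0.53 when libraries were scaled by the spike-in RNA, and of -0.04 when only genes at a mean of 1 log2 CPM or more were kept for scaling and testing. Without FTOmut replicate 1 that median was -1.02. Leaving out a library also let more low-count genes past the filter (45242 tested without FTOmut replicate 1). Without FTO replicate 1, which is not in the contrast, the median was -0.79, as with no filter. Values given without a library therefore mix its loss with a change of the filter. Of the 16202 genes at 2 log2 CPM or more, 48.9% were called lower and 18.2% higher in the fit reported. Counts in the lists below are to be read beside these shares. Several lists also hold genes below that level, where a smaller share was called lower (1332 of 7143 between 0 and 2 log2 CPM). The medians of gene groups are therefore to be read beside -0.52, and called differences below 1 on the log2 scale as dependent on the scaling. Without FTOmut replicate 1 lower calls rose across all genes at 2 log2 CPM or more, so list counts for that setting are to be read beside -1.02. The lists were chosen with earlier results of these data known, so their counts describe these genes and are no independent test.

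Genes of iron acquisition were lower in FTOmut roots, several of them more than 30-fold. Of the 14 genes in the list of iron uptake and transport, 11 were lower and none higher, 10 of them in both replicates, with a median log2 fold change of -3.87. Across 14 alternative settings with no minimum fold, between 10 and 12 were lower and at most 1 was higher. The nicotianamine synthase OsNAS1 (LOC_Os03g19427) stood at 5.24 and 5.28 log2 CPM in FTOmut roots, against 10.25 and 10.40 in wild-type roots. Both FTOmut libraries lay far below both wild-type ones, a 33.5-fold reduction (log2 fold change -5.07 with an SE of 0.21, adjusted p = 1.1e-09 in edgeR). Its neighbour OsNAS2 (LOC_Os03g19420), a close copy with which reads could be shared, had 5.39 and 5.23 log2 CPM in FTOmut and 10.37 and 10.52 in wild type (log2 fold change -5.14). The third synthase, OsNAS3 on chromosome 7, reached 2.74 and 2.11 log2 CPM in FTOmut, against 5.35 and 5.43 in wild type (log2 fold change -2.95).

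The next step of chelator synthesis moved in the same direction. OsNAAT1 (LOC_Os02g20360), the aminotransferase that acts on nicotianamine, had 3.95 and 4.31 log2 CPM in FTOmut roots, against 8.98 and 9.19 in wild-type roots, a 30.9-fold reduction (log2 fold change -4.95 with an SE of 0.22, adjusted p = 1.8e-09 in edgeR). OsYSL15, which imports ferric deoxymugineic acid, had 6.12 and 5.67 log2 CPM in FTOmut and 9.07 and 9.01 in wild type (log2 fold change -3.13). The groups did not overlap for either gene.

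Ferrous iron transporters were lower as well. OsIRT2 (LOC_Os03g46454) was close to the detection limit in FTOmut, with 7 and 20 counts against 688 and 856 counts in wild type (log2 fold change -6.08 with an SE of 0.31, adjusted p = 5.12e-09 in edgeR). OsIRT1 (LOC_Os03g46470) had 4.38 and 3.62 log2 CPM in FTOmut and 6.16 and 6.10 in wild type (log2 fold change -2.08). OsNRAMP1, a metal transporter of the root plasma membrane, had 1.39 and 2.22 log2 CPM in FTOmut and 7.37 and 7.76 in wild type, a 52.3-fold reduction. Not every metal transporter changed in this way. OsNRAMP5, which takes up manganese and cadmium, was lower by only 0.69 on the log2 scale, with a wild-type and an FTOmut library less than 1 apart. That call was lost without FTOmut replicate 2 (log2 fold change -0.32), without either wild-type library and when only the 4 libraries compared were fitted. It was also lost when only genes at a mean of 1 log2 CPM or more were kept. OsYSL2 (log2 fold change 0.25, adjusted p = 0.70) and OsYSL16 (0.31, adjusted p = 0.23) did not pass the test. Without FTOmut replicate 1 the fold changes were larger, at -2.88 for OsIRT1, -3.66 for OsNAS3 and -3.74 for OsYSL15, and without FTOmut replicate 2 OsIRT2 stood at -6.80.

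Among regulators and stores of iron, 7 of 10 listed genes were lower, all in both replicates, and none higher (median log2 fold change -1.73). OsVIT2, which loads iron into the vacuole, had 2.43 and 1.72 log2 CPM in FTOmut and 6.27 and 6.37 in wild type (log2 fold change -4.22, and -4.99 without FTOmut replicate 1). OsIRO3, a bHLH repressor of the iron deficiency response, fell by 2.35 on the log2 scale, OsVIT1 by 1.61, and IDEF1, an activator of that response, by 1.39. OsVIT1 and OsVIT2, genes of vacuolar iron storage, thus lay on the same side as the uptake genes.

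**Figure D2:**
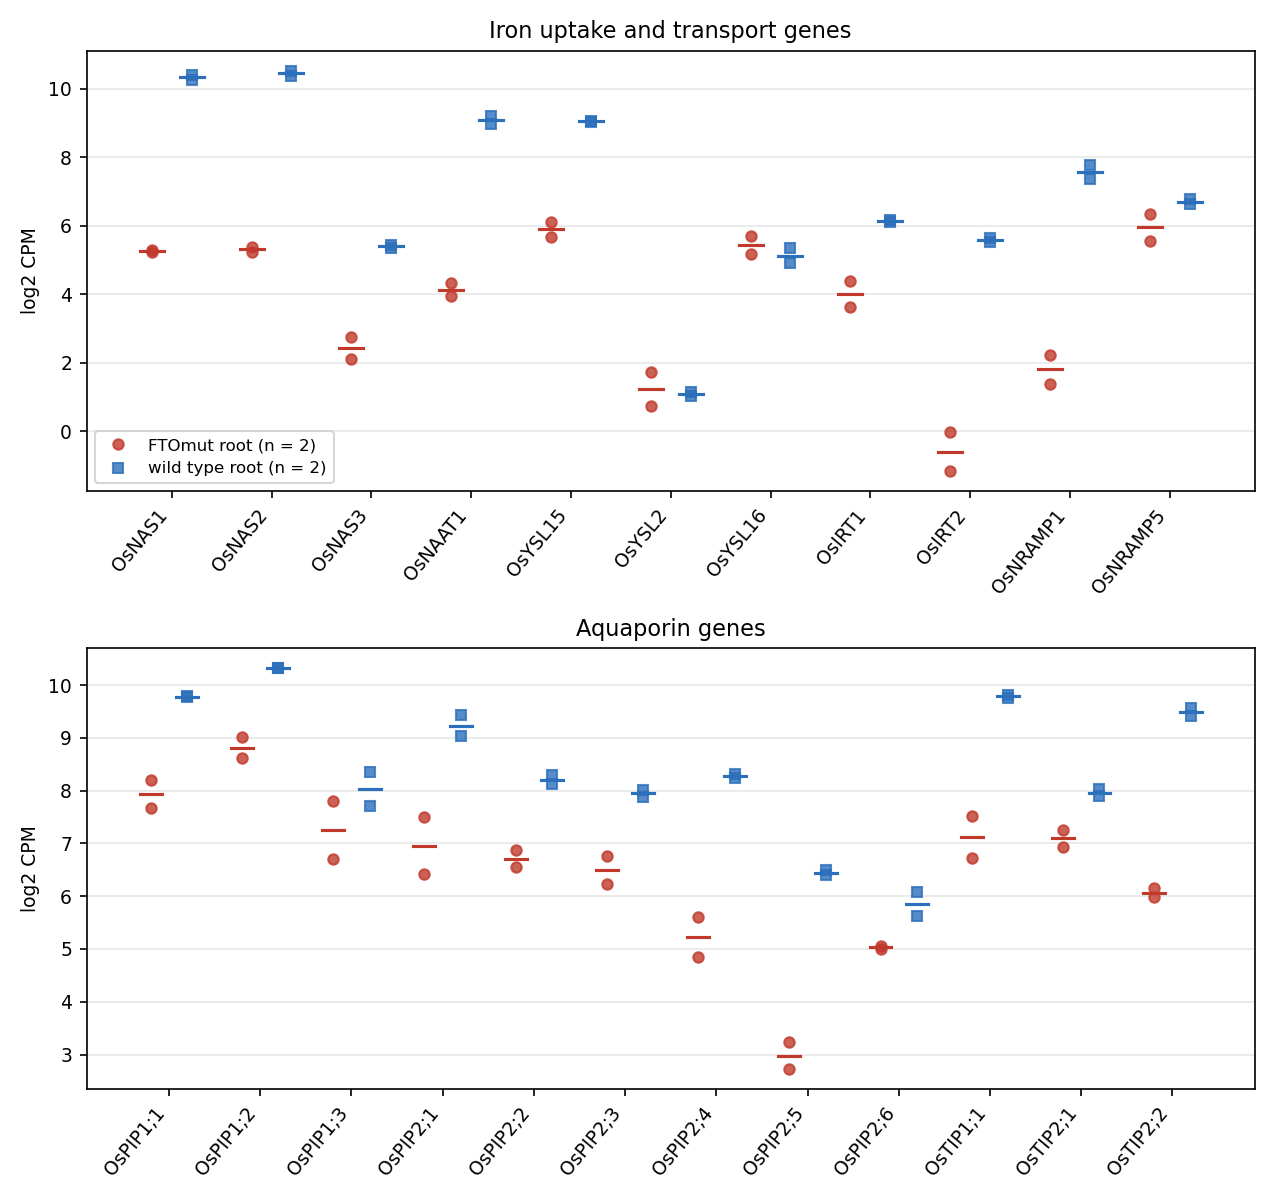
Level in log2 CPM of iron uptake genes (upper panel) and aquaporins (lower panel) with a checked name in each root library, FTOmut as circles and wild type as squares, with a bar at the mean of 2 libraries. OsNAS1, OsNAS2, OsNAAT1, OsIRT2 and OsNRAMP1 lie more than 4 log2 units lower in both FTOmut libraries than in either wild-type library, while OsYSL2 and OsYSL16 do not separate; every aquaporin mean is lower in FTOmut, and OsPIP1;3 overlaps.

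Water channel genes formed another group with lower transcripts. Of 12 aquaporins, 11 were lower in FTOmut roots and none higher, 9 of them in both replicates, with a median log2 fold change of -1.66. Under those 14 settings 10 to 12 were lower and none was higher. The plasma membrane members lay between 2.73 and 9.02 log2 CPM in FTOmut roots and between 5.63 and 10.32 in wild-type roots. OsPIP2;5 (LOC_Os07g26660) had 3.23 and 2.73 log2 CPM in FTOmut, against 6.40 and 6.49 in wild type, a large reduction (log2 fold change -3.46 with an SE of 0.22, adjusted p = 3.33e-08 in edgeR). OsTIP2;2 (LOC_Os06g22960), a channel of the vacuolar membrane, had 6.16 and 5.98 log2 CPM in FTOmut and 9.41 and 9.56 in wild type (log2 fold change -3.41). The next in size were OsPIP2;4 (-3.01), OsTIP1;1 (-2.61), OsPIP2;1 (-2.19) and OsPIP1;1 (-1.82), each without overlap between the groups. OsPIP1;3 was the exception, with 7.81 and 6.71 log2 CPM in FTOmut and 8.36 and 7.72 in wild type, where the groups overlapped (adjusted p = 0.14). Without FTOmut replicate 1, OsPIP2;5 stood at -4.10, OsPIP2;4 at -3.80, OsTIP1;1 at -3.43, OsPIP2;1 at -3.20 and OsPIP1;1 at -2.48.

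For other ion and metal transporters the share of lower genes was below the 48.9% of all genes at 2 log2 CPM or more. Of 14 listed genes 6 were lower and 1 higher, with a median of -0.59. Without FTOmut replicate 1 more of the list was called lower, but the median of all genes at that level also fell, to -1.02. The 1 higher gene, OsZIP1 (0.60, adjusted p = 0.0386), lost its call without any 1 library other than FTOmut replicate 2. OsHKT2;1 (LOC_Os06g48810), a sodium transporter, had 2.11 and 2.66 log2 CPM in FTOmut, against 6.98 and 7.29 in wild type, a 26.5-fold reduction (log2 fold change -4.73 with an SE of 0.24, adjusted p = 4.56e-09 in edgeR). OsHKT1;5 (log2 fold change -0.03) and OsZIP4 (0.07) were not called. The silicon channel OsLsi1 had 8.11 and 6.95 log2 CPM in FTOmut and 7.80 and 7.07 in wild type, and the silicon exporter OsLsi2 had 8.22 and 7.33 in FTOmut and 7.88 and 7.71 in wild type. For both silicon transporters the groups overlapped and the test was not passed, but without FTOmut replicate 1 they were called lower, at -0.90 for OsLsi1 and -0.84 for OsLsi2.

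The DREB1 transcription factor genes were high in FTOmut roots and low in wild-type roots. All 7 tested members were higher in both replicates, with log2 fold changes between 6.17 and 9.72 and a median of 7.21. They lay between 4.36 and 9.07 log2 CPM in FTOmut roots and between -2.77 and 2.07 in wild-type roots. OsDREB1F (LOC_Os01g73770) had 2064 and 2138 counts in FTOmut, against 2 and 2 in wild type. The ratio of its scaled counts was 885 (95% exact interval 345 to 3250, for counting error only), and its fitted value of 9.72 on the log2 scale (adjusted p = 5.31e-10 in edgeR, SE 0.33) was the largest increase among both-replicate genes at a mean of 3 log2 CPM or more. OsDREB1C (LOC_Os06g03670) had 9.07 and 8.72 log2 CPM in FTOmut, against 0.23 and 0.82 in wild type (log2 fold change 8.36). The neighbouring genes OsDREB1A, OsDREB1B and OsDREB1H on chromosome 9 were higher by 6.17, 6.76 and 7.21 on the log2 scale.

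Of both listed DREB2 genes 1 was called. OsDREB2A, a factor linked to drought and heat, had 5.70 and 5.35 log2 CPM in FTOmut and 4.14 and 4.37 in wild type (log2 fold change 1.27), a call that was lost without wild-type replicate 1 (0.92, adjusted p = 0.087). OsDREB2B was not called (log2 fold change 0.11), and stood at -0.86 without FTOmut replicate 1. In the whole list of cold and drought factors 11 of 13 were higher and none lower (2 lower without FTOmut replicate 1). Leaving out FTOmut replicate 1 gave log2 fold changes of 5.85 for OsDREB1B, 5.95 for OsDREB1E, 7.02 for OsDREB1G and 6.36 for OsDREB1H. Leaving out wild-type replicate 1 gave 6.12 for OsDREB1B, and leaving out wild-type replicate 2 gave 5.90 for OsDREB1E. All of these remained called.

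**Figure D3:**
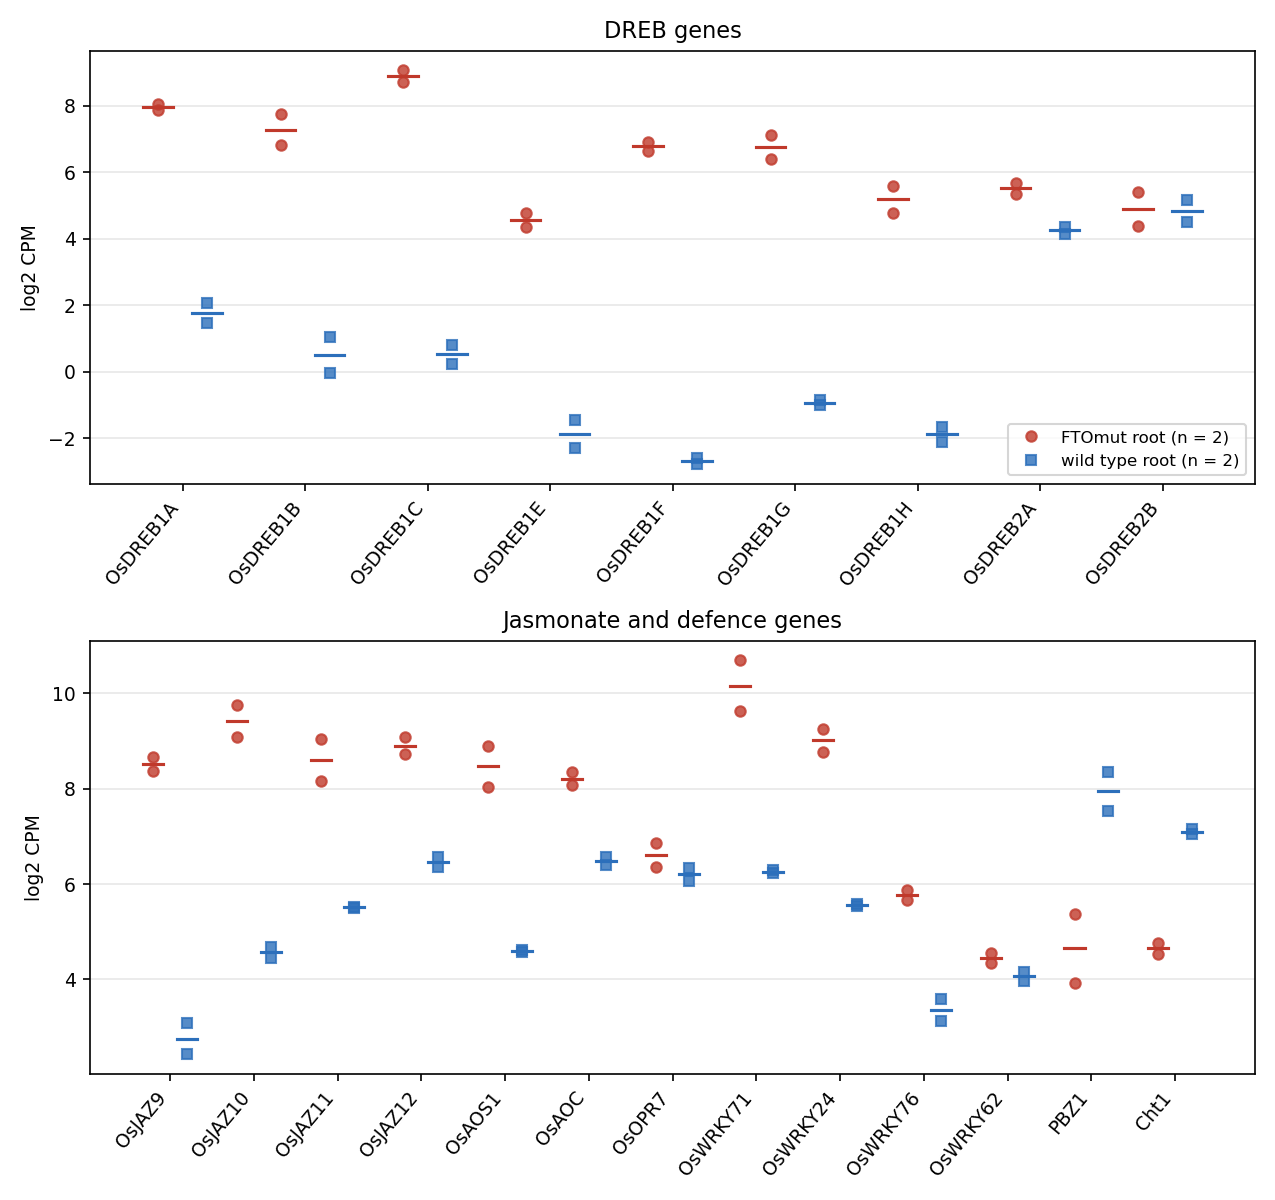
Level in log2 CPM of DREB genes (upper panel) and of jasmonate and defence genes (lower panel) in each root library, FTOmut as circles and wild type as squares, with a bar at the mean of 2 libraries. The 7 DREB1 genes lie at or above 4.36 log2 CPM in FTOmut and at or below 2.07 in wild type; PBZ1 and Cht1 lie in the opposite direction to the JAZ and WRKY genes.

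Jasmonate genes were higher, both the repressors induced by the hormone and enzymes that make it. Of 11 listed genes 8 were higher, 7 in both replicates, and 1 was lower (median log2 fold change 1.74). OsJAZ9 (LOC_Os03g08310) had 8.66 and 8.38 log2 CPM in FTOmut, against 2.44 and 3.08 in wild type, a 53.1-fold increase (log2 fold change 5.73 with an SE of 0.26, adjusted p = 2.4e-09 in edgeR). OsJAZ10 was higher by 4.88, OsJAZ11 by 3.16 and OsJAZ12 by 2.45 on the log2 scale, each a both-replicate call. Such calls made up 9.38% of all genes at 2 log2 CPM or more on the higher side. The allene oxide synthase OsAOS1 (LOC_Os03g55800) had 8.91 and 8.03 log2 CPM in FTOmut and 4.58 and 4.63 in wild type (log2 fold change 3.93). Allene oxide cyclase OsAOC (1.74) and OsJAR1, which joins jasmonate to isoleucine (1.58), were also higher. The paralogue OsAOS2 was lower by 0.74, and OsOPR7 was not called (0.42). The OsAOS2 call was lost without FTOmut replicate 2 (-0.39), without wild-type replicate 1, and when only genes at a mean of 1 log2 CPM or more were kept. Without FTOmut replicate 1, OsJAZ10 stood at 4.14, OsJAZ11 at 2.28, OsAOS1 at 3.06 and OsJAR1 at 0.81.

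Among defence genes, WRKY transcription factors were higher: 6 of 8 tested passed, 5 in both replicates, and none was lower. OsWRKY71 (LOC_Os02g08440) stood at 10.69 and 9.63 log2 CPM in FTOmut and 6.29 and 6.23 in wild type (15.9-fold, edgeR adjusted p = 3.73e-06). OsWRKY24 was higher by 3.47 and OsWRKY76 by 2.39 on the log2 scale. OsWRKY62 missed the threshold (0.38, adjusted p = 0.091). Other genes of the list were lower. PBZ1, which encodes a PR10 protein, had 5.37 and 3.93 log2 CPM in FTOmut and 8.36 and 7.54 in wild type (log2 fold change -3.19, SE 0.61, adjusted p = 0.011), and the chitinase gene Cht1 fell by 2.45. In the whole defence list 7 of 16 were higher and 4 lower. Values without FTOmut replicate 1 were 3.00 for OsWRKY71, 2.83 for OsWRKY24 and -4.45 for PBZ1, and PBZ1 stood at -2.60 without FTOmut replicate 2.

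Diterpenoid phytoalexin genes were lower. These antimicrobial compounds, momilactones and phytocassanes, are made by clustered genes. Of 12 listed genes 10 were lower and none higher, 9 in both replicates, with a median of -1.61. CYP99A2 (LOC_Os04g10160), a cytochrome P450 of the momilactone cluster, had 3.21 and 3.29 log2 CPM in FTOmut and 6.19 and 6.14 in wild type (log2 fold change -2.92 with an SE of 0.19, adjusted p = 3.97e-08 in edgeR). In the same cluster on chromosome 4, CYP99A3 fell by 2.42, OsCPS4 by 2.08, OsMAS by 1.66 and OsKSL4 by 1.56. From the phytocassane branch OsKSL7 fell by 1.80, while OsCPS2 (log2 fold change -0.18) was not called, and neither was OsKSL10 (-0.16), a synthase of oryzalexins. CYP99A3 stood at -3.01 without FTOmut replicate 1.

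Abscisic acid and desiccation genes did not move together. In the list 9 of 17 were higher and 6 lower, with a median of 0.54. OsDhn1 (LOC_Os02g44870), a dehydrin, had 11.36 and 11.07 log2 CPM in FTOmut and 7.73 and 7.76 in wild type, an 11.2-fold increase (log2 fold change 3.48 with an SE of 0.20, adjusted p = 1.15e-08 in edgeR). OsNCED3, which starts abscisic acid synthesis, was higher by 2.58, and OsABA8ox3, an enzyme of its breakdown, by 2.46. The low-count dehydrin gene RAB16B had 13 and 31 counts in FTOmut and 1 and 6 in wild type (log2 fold change 2.35, 1.40 and not called without wild-type replicate 1, 3.68 without wild-type replicate 2), and RAB16C was not called (-0.22). SalT (LOC_Os01g24710), a salt-induced lectin, had 8.22 and 8.09 log2 CPM in FTOmut and 11.56 and 11.54 in wild type (log2 fold change -3.39), and OsLEA3, a late embryogenesis abundant protein gene, fell by 2.80. OsABA8ox2, of the same enzyme family as OsABA8ox3, fell by 2.77. OsNCED3 stood at 1.88 without FTOmut replicate 1.

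Transcripts of photosynthesis were higher in FTOmut roots, at levels below those of shoots. Of 24 listed genes of green tissue 18 were higher, 16 in both replicates, and 2 were lower (median log2 fold change 1.91). For all genes at 2 log2 CPM or more the shares were 18.2% higher and 9.38% higher in both replicates. Among 11 genes of light-harvesting chlorophyll-binding proteins, 10 were higher and none lower. Cab2R (LOC_Os01g41710) had 8.26 and 7.63 log2 CPM in FTOmut, against 3.65 and 3.97 in wild type (log2 fold change 4.17 with an SE of 0.25, adjusted p = 1.88e-08 in edgeR). Cab1R was higher by 2.18, OsRCA (Rubisco activase) by 2.01, OsPORB and OsCHLH (both enzymes of chlorophyll synthesis) by 1.81 and 1.73, and OsGLK1, a factor that promotes chloroplast development, by 1.53. OsGLK2 (0.31) and OsCHLD (0.10) were not called, and OsPORA was lower by 1.07. The OsPORA call was lost without FTOmut replicate 2 (-0.59) and when only genes at a mean of 1 log2 CPM or more were kept (-0.61).

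The summed CPM of the 24 green markers, scaled together with the shoots, was 1217 and 740.7 in FTOmut roots and 233.0 and 253.2 in wild-type roots, a 4.03-fold difference, and no marker was at 0 in any library. That sum in FTOmut roots was 6.38% of the sum in FTOmut shoots. In wild type it was 2.15% of the mean of both shoot libraries, but 1.28% of shoot replicate 1 and 6.76% of shoot replicate 2, so whether the share differed between FTOmut and wild type turned on 1 library. Whether shoot tissue in the FTOmut root samples, or greening of roots, had a part in these values was not tested. Fold changes without FTOmut replicate 1 were 3.44 for Cab2R, 1.48 for Cab1R, 1.098 for OsRCA, 1.152 for OsPORB, 0.78 for OsCHLH and 0.93 for OsGLK1 on the log2 scale.

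**Figure D4:**
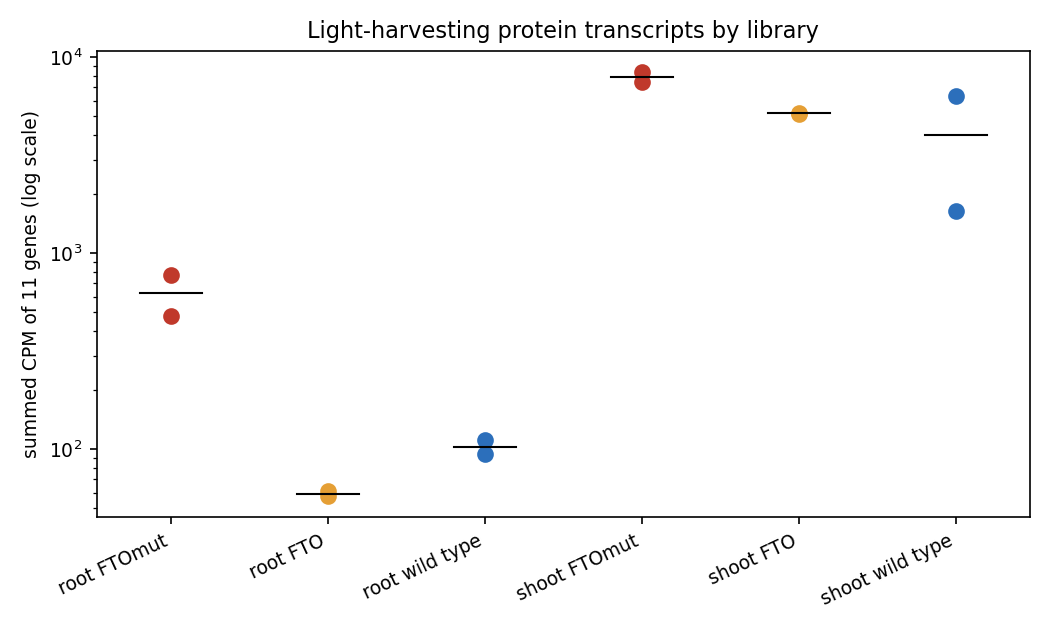
Summed CPM (log axis) of 11 light-harvesting protein genes in each library of root and shoot by genotype, points for the 2 replicates and a bar at their mean. FTOmut roots (774.9 and 478.9) lie above the roots of FTO (60.8 and 57.8) and wild type (93.9 and 110.7) and below every shoot library; wild-type shoot replicate 2 (1637) is the lowest of the shoots.

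Of 14 tested genes of root identity and development, 6 were lower and 1 higher, with a median of -0.73, close to that of all genes at 2 log2 CPM or more. Without FTOmut replicate 1, 11 of 15 were lower, and without FTOmut replicate 2, 3 of 14 were higher. OsSHR1, which patterns the ground tissue, fell by 1.54, and OsEXPA17, an expansin of root hairs, fell by 2.81. WOX11 (log2 fold change -0.02), a factor for crown root growth, was not called. The summed CPM of 14 root markers was 581.9 and 325.2 in FTOmut roots and 388.1 and 313.1 in wild-type roots, so the groups overlapped.

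In the gibberellin list 7 of 12 genes were lower and 2 higher, or 1 without any 1 of the wild-type and FTO libraries (median -0.71), beside 48.9% lower among all genes at 2 log2 CPM or more. EUI1, which inactivates gibberellins, had 3.84 and 4.02 log2 CPM in FTOmut and 6.73 and 7.01 in wild type (log2 fold change -2.94 with an SE of 0.20, adjusted p = 4.82e-08 in edgeR). Of the synthesis genes, SD1 (-2.69) and OsKO2 (-2.11) were lower, OsKS1 was higher (1.39), and OsCPS1 was not called (0.26). The OsKS1 call was lost with no filter on low counts and without any 1 of the wild-type and FTO libraries. The DELLA repressor gene SLR1 was not called (0.30, but -0.39 and called without FTOmut replicate 1). Type-A response regulators, which cytokinin induces and which damp its signal, were lower in 4 of 6 cases, with OsRR2 at -2.74, OsRR4 at -1.57, OsRR10 at -1.48 and OsRR9 at -1.22, and OsRR6 not called (0.02). LOG, the enzyme that activates cytokinin, was higher by 1.64 and stood at 0.93 without FTOmut replicate 1. Of 8 tested strigolactone and tillering genes 3 were lower and none higher (median -0.39), a smaller share than that 48.9%. The strigolactone receptor partner D3 fell by 1.69 and IPA1, a regulator of shoot branching, by 2.02. The synthesis genes D17 and D10 were not called.

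Of 13 auxin genes 6 were lower and 2 higher (median -1.02). The lower share was no larger than the 48.9% of all genes at 2 log2 CPM or more, but several of the 13 lay below that level. Without any 1 library other than FTOmut replicate 2, 1 was higher. The efflux carrier OsPIN1a had 2.51 and 2.22 log2 CPM in FTOmut and 4.89 and 4.78 in wild type (log2 fold change -2.48), and OsPIN1b fell by 1.62. Of the enzymes that join auxin to amino acids, OsGH3.8 (LOC_Os07g40290) was higher, with 7.65 and 7.05 log2 CPM in FTOmut and 4.27 and 3.67 in wild type (log2 fold change 3.39), whereas OsGH3.2 was 2.83-fold lower. OsPIN10a passed narrowly as higher (1.16, adjusted p = 0.049) and was not called under 10 of 12 alternatives, among them DESeq2 (adjusted p = 0.085). The carriers OsPIN9 (0.32) and OsPIN5a (0.57) were not called. OsPIN1b stood at -2.48, OsGH3.2 at -2.22 and OsGH3.8 at 2.69 without FTOmut replicate 1.

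Low-oxygen genes were higher, led by PDC1 (LOC_Os05g39310), a pyruvate decarboxylase of ethanol fermentation. Among all genes at 2 log2 CPM or more, 18.2% were called higher. PDC1 had 276 and 522 counts in FTOmut, against 17 and 13 counts in wild type, with log2 CPM of 4.03 and 4.62 against 0.23 and -0.36 (log2 fold change 4.44 with an SE of 0.31, adjusted p = 7.59e-08 in edgeR). The amylase gene RAMY3D was higher by 2.16 and the alcohol dehydrogenase gene ADH2 by 1.25, the second of which lost its call without wild-type replicate 1 (0.90, adjusted p = 0.097). PDC2 (0.30) and RSUS1 (-0.03) were not called. In all, 5 of 7 were higher and none lower, but 3 were higher without wild-type replicate 1, and 1 was lower without FTOmut replicate 1. Of 9 heat shock genes 6 were not called. HSP17.9A was lower by 0.97 on the log2 scale, and without FTOmut replicate 1, 3 genes were lower. HSP16.9A and OsHsfA2a passed as higher at low counts: 34 against 2 counts in all for HSP16.9A (ratio 14.3, 95% exact interval 3.67 to 123) and 117 against 16 for OsHsfA2a (6.16, 3.64 to 11.1). Without wild-type replicate 1 HSP16.9A was not called (2.53, adjusted p = 0.15), and it stood at 6.70 without wild-type replicate 2 and at 2.80 without FTOmut replicate 2. Without wild-type replicate 2 OsHsfA2a was not called (1.75, adjusted p = 0.11).

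In the nitrogen list 6 of 18 were higher and 7 lower (median -0.17), but 4 higher and 12 lower without FTOmut replicate 1 and 3 higher without wild-type replicate 1, with the nitrate reductase gene OsNIA1 lower by 1.61 and OsNRT2.1 (-0.06) and OsGS1;2 (-0.02) not called. Of 12 tested phosphate genes 5 were lower, near the 48.9% of all genes at 2 log2 CPM or more, and 1 was higher (3 without FTOmut replicate 2, and none without any 1 of the other 5 libraries). The transporter OsPT4 was 3.99-fold lower, OsSPX2, a sensor of phosphate status, 2.34-fold and the transporter OsPT2 2.23-fold. Of 9 cellulose synthase genes 7 were lower and none higher, a larger share than that 48.9%, but 1 in both replicates (OsCesA8, -1.45). Of the 9, 4 were called when only genes at a mean of 1 log2 CPM or more were kept, and 1 with a minimum fold of 2. Cell division genes were lower in 5 of 10, again near that share (8 without FTOmut replicate 1), among them MCM2 (-1.35), a helicase of DNA replication, and CycB2;2 (-1.33). In the clock 5 of 11 genes were lower (8 without FTOmut replicate 1); OsPRR95 fell by 2.45 and OsLHY by 1.14, while OsPRR1 (-0.17) and OsPRR73 (0.23) were not called. Among genes of RNA silencing and DNA methylation 5 of 16 were lower and 1 higher, but 10 were lower without FTOmut replicate 1 and 3 without wild-type replicate 1. OsAGO18, an Argonaute, was 3.03-fold higher, and the DNA methyltransferase OsDRM2 fell by 1.43. Neither of 2 tested genes listed for the writing of m6A was called (median -0.43), and both were called lower without FTOmut replicate 1. In the fit reported, the shares of lower genes in the nitrogen, clock and RNA silencing lists were all below that 48.9%. Without FTOmut replicate 1, OsNIA1 stood at -2.44, OsCesA8 at -2.09 and MCM2 at -1.99.

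When only genes at a mean of 1 log2 CPM or more were kept, several counts changed by over 1.5 times: lower genes were then 3 of 11 for root identity, 4 of 11 for gibberellin and 2 of 16 for RNA silencing, and higher genes 4 of 16 for RNA silencing, 4 of 9 for phosphate, 3 of 7 for cytokinin and 11 of 15 for defence. Under that filter 4467 of the 16202 genes at 2 log2 CPM or more were called lower and 4595 higher, against 48.9% and 18.2% in the fit reported. The list counts are to be read beside that shift of all genes. Cell division genes were lower in 8 of 10 with no filter on low counts, and RNA silencing genes in 3 of 16 when only the 4 libraries compared were fitted.

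**Figure D5:**
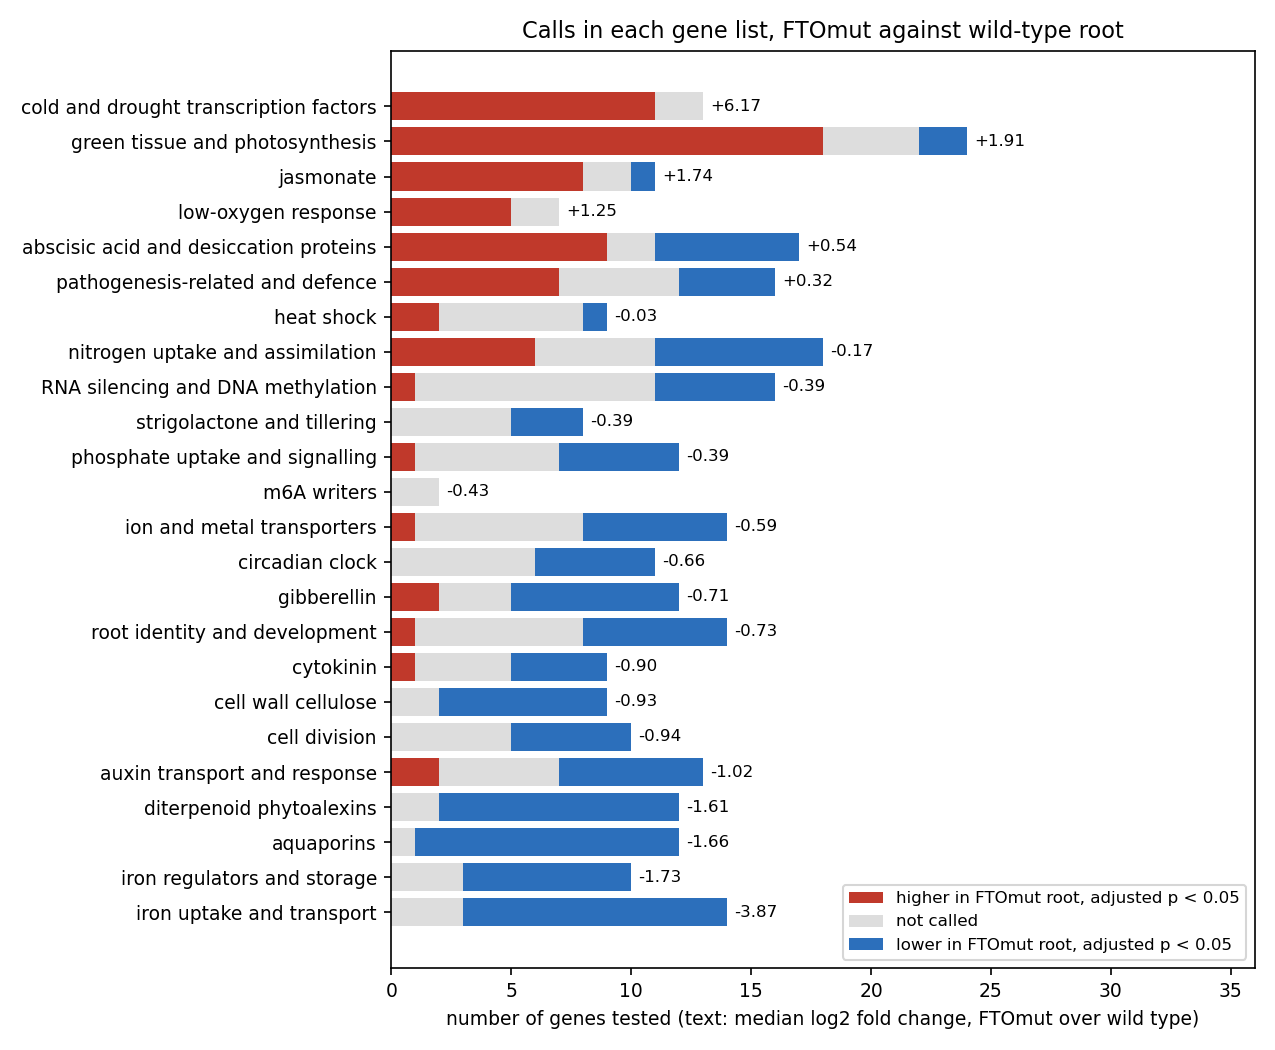
Number of tested genes called higher (left, red), not called (grey) and called lower (right, blue) in FTOmut than in wild-type roots in each of 24 gene lists, ordered by median log2 fold change, which is printed at the end of each bar. Cold and drought factors lead at 6.17 and iron uptake genes close the order at -3.87.

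The largest both-replicate changes outside the lists, at a mean of 3 log2 CPM or more, are given by identifier because the sources used here do not name them. LOC_Os03g02470 had 7.35 and 6.65 log2 CPM in FTOmut and -1.74 and -1.93 in wild type (513.5-fold higher). LOC_Os01g65110 had 0.05 and 0.10 log2 CPM in FTOmut and 7.62 and 7.55 in wild type (log2 fold change -7.55, SE 0.24), and LOC_Os11g15624 had 0.05 and 0.22 in FTOmut and 6.34 and 5.74 in wild type (log2 fold change -5.96, SE 0.28).

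Both transgenic genotypes were set beside the same wild-type libraries, so their differences from wild type are not independent. FTO against wild type called 11399 of the 32467 genes (35.1%). OsNAS1 was lower by 5.07 on the log2 scale in FTOmut and by 2.09 in FTO. OsDREB1F was higher by 9.72 in FTOmut and by 8.64 in FTO, and OsJAZ9 by 5.73 in FTOmut and by 5.40 in FTO. OsLEA3 had opposite signs, at -2.80 in FTOmut and 1.87 in FTO. FTOmut against FTO, tested directly, called 6581 genes (20.3%), of which 1777 were higher (5.47%) and 4804 lower (14.8%). FTO roots stood apart in composition, with 22.7 and 23.3 gene counts per spike-in count and 23.2% and 22% of gene counts in 2 loci of chromosome 9, against 4.3% and 1.22% in FTOmut roots. With spike-in scaling the count was 681 higher and 10616 lower, so the values below depend on the scaling.

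Of 14 iron uptake genes 10 were lower in FTOmut than in FTO, with OsNAS1 at 5.24 and 5.28 log2 CPM in FTOmut and 8.35 and 8.11 in FTO (log2 fold change -2.97 with an SE of 0.19, adjusted p = 5.68e-07 in edgeR), and OsHKT2;1 was lower by 2.88. Of 12 aquaporins 7 were lower. Of 24 green tissue genes 19 were higher, with Cab2R at 3.98. Jasmonate genes were called in 2 of 11 cases: OsJAZ9 (0.33), OsJAZ10 (0.53), OsJAZ11 (-0.40) and OsJAZ12 (-0.26) were not called, and neither were OsWRKY71 (0.34) and OsWRKY24 (-0.12). Of the DREB1 genes, OsDREB1A (1.80), OsDREB1F (1.08) and OsDREB1H (0.90) were higher in FTOmut than in FTO. Of 17 abscisic acid and desiccation genes 12 were lower in FTOmut than in FTO, with OsLEA3 at -4.67.

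In shoots the wild-type libraries did not resemble each other. Across 15350 genes wild-type shoot replicate 2 was closer to the FTOmut shoots (Spearman rho 0.87 and 0.82) than to wild-type shoot replicate 1 (0.743), which was closest to the FTO shoots (0.946 and 0.947). With root and shoot libraries scaled together, OsNAS1 had -1.71 and -1.26 log2 CPM in FTOmut shoots and 5.49 and -2.37 in wild-type shoot replicates 1 and 2. Whether the label of wild-type shoot replicate 2 is right was not tested, and the shoot values rest on it. The FTOmut and wild-type shoots gave 0 called genes among 24463 tested by edgeR, with 2179 at an unadjusted p under 0.05, and 532 by DESeq2. Without wild-type replicate 2 edgeR called 4305 genes (1385 higher, 2920 lower), and without wild-type replicate 1 it called 2068 (614 higher, 1454 lower), the lone wild-type library being assumed to vary like the other groups. At 2 log2 CPM or more 1519 of 16202 genes were both-replicate higher in root (9.38%) and 2735 lower. Among those also tested in shoot, 1241 of 1453 higher ones (85.4%) had a positive fold change in shoot and 1993 of 2532 lower ones (78.7%) a negative one, while 47.2% of all genes at that level were positive. Without shoot wild-type replicate 2 these shares were 83.2%, 80% and 37.4%, and without shoot wild-type replicate 1 they were 62.5%, 78.8% and 28.6%. The difference between the root effect and the shoot effect was called for 350 of 38524 genes (0.909%), and for 757 without shoot wild-type replicate 2. OsJAZ9 had 6.81 and 5.91 log2 CPM in FTOmut shoots and 0.56 and 5.24 in wild-type shoots, while Cab2R had 10.38 and 10.25 in FTOmut shoots and 9.58 and 7.75 in wild-type shoots.

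Genes were also described by the organ they favour, defined in the FTO libraries, which are not part of the contrast but entered the fit. FTO roots resembled FTOmut roots (Spearman rho 0.902 to 0.913) more than wild-type roots (0.812 to 0.832). A gene raised in both transgenic roots can thus be classed as favouring the root through that rise. The share of higher genes in that class is therefore partly built in. Of 1457 tested genes at least 8-fold higher in FTO shoots than in FTO roots, 290 were both-replicate higher in FTOmut roots (19.9%) and 143 lower (9.81%). Of 996 genes with the opposite bias, 362 were both-replicate higher (36.3%) and 197 lower (19.8%). Of 19525 other genes 1755 were higher (8.99%) and 2891 lower (14.8%). Tested genes with a low mean over the FTO root and shoot libraries were set aside and belong to none of these classes. These shares were not tested against each other.

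Deposited m6A peak lists of wild-type roots were used to describe the same genes. Among genes at 6 log2 CPM or more, a peak in both wild-type replicates was listed for 29.2% of 442 both-replicate higher genes (95% exact interval 25 to 33.7), 44.1% of 388 lower genes (39.1 to 49.2) and 62.8% of 857 genes not called (59.4 to 66.0). Between 4 and 6 log2 CPM the shares were 30.9%, 53.3% and 65.9%. Peaks are found more easily in abundant transcripts, and the median wild-type level was 5.55, 7.75 and 6.68 log2 CPM in the higher, lower and not called genes of the upper range, so the lower genes had the highest level and an intermediate share. The part of level and length in these shares was not tested.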

How the data were processed

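Root RNA was sequenced after addition of ERCC spike-in and removal of ribosomal RNA, per the labels' protocols; the labels also name poly(A) RNA as the molecule, which conflicts with this. Reads were trimmed, aligned and counted with cutadapt 1.15, HISAT2 2.1.0 and featureCounts of Subread 1.6.4, per the submitters' processing notes; which annotation and genome build they used is not stated in the labels. The authors deposited expected counts, some of them fractional, with no normalization, and a row length in bp (another unit, used for description only). Their deposited m6A peak lists, whose fold is a ratio, were used only for which genes hold a peak.

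Counts were rounded. The 6 root libraries were fitted together, 1 mean per genotype, with edgeR 4.0.16 under R 4.3.3: filter by expression, TMM scaling, robust quasi-likelihood F test, two-sided, Benjamini-Hochberg adjustment over all genes tested. Levels were expressed as log2 CPM, adding a prior count of 0.5; these are not corrected for gene length, so levels are compared between libraries, not between genes. SE is that of the fitted log2 fold change. The root and shoot effects were compared as a contrast over 12 libraries. Alternatives were DESeq2 1.42.0, other scalings and filters, a minimum fold, a replicate block and leaving out each library. Nothing in the labels ties replicates to separate cultures, so p-values measure only the spread between these samples, and the same replicate numbers are not stated to pair libraries. Replicates differed by more than counting noise in each group (chi-square per degree of freedom 29.92 in FTOmut, 3.121 in FTO and 17.05 in wild type), so each was kept as a sample. The library kit marks strand, but no source states the strand setting of the counting, so overlapping antisense genes may share reads.

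The 24 lists hold 298 pairs of symbol and identifier from rice nomenclature. The members and lists were chosen with earlier results of these data known. The reference gene table is of another assembly, so names were checked only by chromosome and order along it; 206 passed and are the only ones printed, while counts use all tested members. Named in each list were up to 6 both-replicate genes by size of change and up to 2 not called; lists with no both-replicate gene gave the 2 smallest p as values. Others, chosen after their values were seen, are OsNAS3, OsIRT1, OsNRAMP5, OsDREB1A, OsDREB2A, OsJAR1, OsAOS2, OsPORA, OsRR9, OsPIN2, OsZIP1, RAB16B, OsKS1, HSP17.9A and OsLsi1. Exact intervals (95%, Clopper-Pearson) cover counting error only.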

Additional observations from a re-analysis of the deposited data

Results flagged for a closer look

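For 14 of the checked list members the difference between FTOmut and wild type was itself different between root and shoot, by the contrast over 12 libraries (edgeR, adjusted p under 0.05). Positive values mean that the FTOmut effect was more positive in root. None of the 14 was called in shoot alone, but the shoot fit called 0 of all 24463 genes tested. In shoot, wild-type replicate 2 resembled the FTOmut libraries more than it resembled wild-type replicate 1.

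Among genes of iron and water uptake, the difference was -5.84 on the log2 scale for OsNAS3 (log2 fold change -2.95 in root and 2.89 in shoot, adjusted p = 0.00182), -3.45 for OsNAAT1 (adjusted p = 0.0498) and -3.88 for OsPIP2;5 (adjusted p = 0.0484). OsNAS3 kept its call in all 9 alternatives, namely the RLE scaling and the removal of each FTOmut or wild-type library in turn, while OsNAAT1 (-5.07 to -2.59) and OsPIP2;5 (-4.76 to -2.56) kept theirs in 3. The DREB1 genes differed in the other direction, by 3.12 for OsDREB1A, 5.57 for OsDREB1C, 6.22 for OsDREB1F and 5.95 for OsDREB1G, as did PDC1 by 4.73. Without shoot wild-type replicate 2 these 5 differences were 2.73, 3.12, 3.30, 3.59 and 2.66, and OsDREB1A, OsDREB1F and PDC1 were no longer called. OsDREB1C and OsDREB1G were not called without any 1 of the 4 root libraries (adjusted p 0.0845 to 0.233). Of the 9 alternatives OsDREB1A kept its call in 6, OsDREB1C and OsDREB1G in 5, and OsDREB1F and PDC1 in 4.

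The remaining differences were -2.88 for CYP99A2, -4.04 for OsPIN2, -2.86 for OsPT4, -2.27 for OsLEA3, -2.84 for OsRR9 and -3.27 for OsRR10. For OsRR10 the root fold change was -1.48 and the shoot fold change 1.79, and it was called in 8 of the 9 alternatives (adjusted p = 0.0546 without shoot wild-type replicate 2). OsRR9 was called in 6 of 9, OsPT4 in 5, CYP99A2 and OsPIN2 in 3 and OsLEA3 in 1.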

How the results depend on the processing

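Of 136 called list members with a checked name, 106 kept their call and direction in every scaling, filter, tool, block and left-out library in which they were tested. With a minimum fold of 2, 89 of the 136 kept it, and without 2 dominant loci 133 did; 86 kept it in all of these together. The number of called genes moved more, and leaving out a library also changed which genes passed the filter on low counts. Keeping only genes at a mean of 1 log2 CPM or more gave 10393 calls (5414 higher, 4979 lower; 2924 and 1469 in both replicates), and a minimum fold of 2 gave 7803 (5109 higher, 2694 lower). Leaving out each library in turn gave 12371 to 33821 calls, 4904 to 20060 of them higher and 7240 to 13761 lower, with 4424 to 18829 higher and 4555 to 9113 lower in both replicates. The lowest totals came without a wild-type library and the highest without FTOmut replicate 1. The share of higher calls was 52.8% in the fit reported, 38.8% without wild-type replicate 1, 41.5% without wild-type replicate 2 and 65.5% at a minimum fold of 2. For FTOmut against FTO, spike-in scaling gave 11297 calls, and leaving out a library gave 2954 to 17741; without FTOmut replicate 2 they were 3520 higher and 3641 lower. For the root effect against the shoot effect, RLE scaling gave 560 calls (395 higher, 165 lower, against 137 and 213 in the fit reported), DESeq2 1815, and leaving out a library 71 to 7286. In shoot, FTOmut against wild type gave 0 calls in edgeR, 532 in DESeq2, and 0 to 4305 when a library was left out, alternatives chosen after seeing the data.

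Some fold changes changed sign. With the filter at 1 log2 CPM, an alternative chosen for single genes after seeing the data, OsPHR2 stood at 0.37 and RSUS1 at 0.45. Leaving out each library in turn, the lowest and highest values were -0.90 and 0.66 for OsLsi1, -0.84 and 0.45 for OsLsi2, -0.99 and 0.44 for OsGS1;2, -0.19 and 0.97 for OsZIP1, -0.86 and 0.57 for OsDREB2B, and -0.39 and 0.60 for SLR1. The cause was not tested. Of 97 both-replicate genes with a checked name, 43 moved by over 1.5 times without some library, 36 of them without FTOmut replicate 1 alone.

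The groups share replicate numbers, but the labels do not say that these pair the libraries, and with 2 pairs the deviations of same-numbered FTOmut and wild-type libraries (r = 0.142 across 32467 genes and 0.447 across the 19358 at a mean of 1 log2 CPM or more; genes are not independent replicates) do not settle it. With a replicate block, 19903 genes were called in root (10172 higher, 9731 lower), 7486 for FTOmut against FTO and 295 for root against shoot.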
